A study of Mus musculus with 2 samples.

Results

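B lymphocytes of the islet infiltrate were described in single-cell RNA libraries of pancreatic islets from wild-type NOD/ShiLtJ mice aged 15 weeks. A barcode was taken as a B cell when it passed count filters (500 or more UMIs, which are molecules counted by unique molecular identifiers, 200 or more genes, and 20% or less of UMIs from the mitochondrial genome). It also needed under 10% of UMIs from islet hormone genes and at least 3 UMIs in sum of Cd79a, Cd79b and Ms4a1. Barcodes with another lineage's genes were left out, so that a B cell had no Cd3 or Siglech UMI, at most 1 C1q UMI and under 5 Jchain UMIs (genes of T cells, plasmacytoid dendritic cells, macrophages and plasma cells). The rule found 2159 B cells among 15958 barcodes, 1019 of 8200 in the gluten library and 1140 of 7758 in the HC alone library. The NOD strain develops autoimmune diabetes, and the 2 groups differed in feed. One diet held 16% HC with 4% gluten and the other 20% HC, where HC is a component that the labels do not expand. Cells from 3 mice were pooled into 1 library per diet (10x 3' v3 chemistry), so mouse-to-mouse spread is not visible, no test between diets was possible, and the diet cannot be told apart from the library. Brackets give 95% exact intervals, which cover counting error only.

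B cells sense antigen through a membrane immunoglobulin that signals through the CD79A and CD79B chains. They need the cytokine BAFF for survival and present peptides on MHC class II to helper T cells. In NOD mice, B cells are part of the islet infiltrate, and mice of this strain that lack B cells are largely protected from diabetes. Follicular B cells carry IgM and IgD and recirculate. Cells that enter a germinal centre proliferate, mutate their antibody genes and exchange IgM for IgG or IgA.

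The genes used by the rule describe the cells and support nothing. The summed level of Cd79a was 3152 CPM (counts per 1000000 UMIs of all B cells of the library) in the gluten library and 3139 CPM in the HC alone library. The marker sum had a median of 11 UMIs per cell with gluten and 16 with HC alone. At the edge of the rule, 22 and 11 barcodes had a marker sum of exactly 3, and Igkc was detected in all of them. Another 20 and 8 barcodes with a sum of 2 were left out, of which 90% and 87.5% held Igkc. Bank1, a B cell adaptor, was detected in 40.9% and 45.5% of the barcodes at 3, and in 40% and 50% of those at 2. Genes outside the rule fitted the label. Bank1 was found in 72.2% of B cells with gluten and 84.8% with HC alone, against 0.0853% and 0.190% of T cells. Fcer2a, the CD23 receptor of mature B cells, was found in 35.7% and 52.8% of B cells, against 0.171% and 0.143% of T cells. T cells here were barcodes chosen by the mirrored rule (at least 3 Cd3 UMIs and none of the 3 B cell genes), 1173 with gluten and 2101 with HC alone. They come from the same libraries as the B cells, so their values stand beside those of B cells as a second cell type and not as independent evidence.

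The median B cell held 2109 UMIs and 886 genes in the gluten library, against 2669.5 UMIs and 1122.5 genes in the HC alone library. Mitochondrial UMIs made up a median of 4.85% and 4.08%. The libraries shared 15 barcode sequences, and no B cell barcode was among them. Scrublet, a doublet caller, marked by its own threshold 3 and 2 barcodes, under 0.5% of each library, and so did not work. B cells with at least 3 UMIs of another lineage's markers numbered 22 in each library (2.16% and 1.93% of B cells). Values without them are given beside several of the results they move. The median of the erythroid list, for one, moved from a log2 ratio, gluten over HC alone, of 0.06 to 3.37 without them. RNA of islet and acinar cells was also present in B cell droplets. At least 10 UMIs of acinar enzymes were held by 79 B cells with gluten and by 0 of 1140 with HC alone, a count that allows a share of up to 0.263% (3 counts of the total). T cell markers had summed levels of 36.1 and 38.4 CPM, with 4 of 15 genes at 10 UMIs or more and the 3 Cd3 genes at 0 by the rule. The part of this carried-over RNA, of depth and of mitochondrial share in any difference between the libraries was not tested.

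B cells made up 13.4% [12.7, 14.2] of the 7577 barcodes that passed the count filters with gluten, and 15.1% [14.3, 15.9] of 7565 with HC alone. The difference was -1.62 percentage points [-2.73, -0.51]. Among B and T cells alone, B cells were 46.5% [44.4, 48.6] with gluten and 35.2% [33.5, 36.8] with HC alone, higher by 11.3 points [8.65, 13.96]. The order of the libraries was thus opposite for the 2 denominators, with fewer T cells in the gluten library, and neither share gives the number of B cells per islet. Barcodes with B cell markers and Cd3 were kept out of both classes, and were 21.8% [19.7, 24.1] of the low-hormone barcodes with B cell markers with gluten and 13.6% [11.8, 15.5] with HC alone.

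The antibody genes placed nearly all of these cells among unswitched, kappa-bearing B cells in both libraries. Of 919 cells with at least 2 heavy chain constant UMIs in the gluten library, 25 (2.72% [1.77, 3.99]) had more UMIs of IgG, IgA or IgE genes than of Ighm and Ighd. In the HC alone library the count was 26 of 1096 (2.37% [1.56, 3.46]). The difference of 0.35 points had an interval of [-1.04, 1.82], so no difference was detectable at this depth. By the same rule 2 of 1173 T cells and 0 of 2101 were positive, the 0 allowing a share of up to 0.143% (3 counts of the total). In cells thinned to 1000 UMIs the shares were 14 of 598 (2.34%) and 13 of 732 (1.78%), after 90 B cells with gluten and 62 with HC alone below that depth were left out. Ighg2b led in 18 of the 25 switched cells with gluten and in 16 of the 26 with HC alone. Ighg1 led in 1 and 5 cells, Ighg2c in 1 and 2, and Igha in 2 and 2, while Ighg3 and Ighe led in none. Switched cells held a median of 3804 and 4163 UMIs, against 2147 and 2667 in unswitched cells.

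Lambda light chains were used by few cells. Of 1016 cells with at least 3 light chain UMIs, 13 (1.28% [0.683, 2.18]) had more lambda than kappa UMIs with gluten, against 27 of 1138 (2.37% [1.57, 3.43]) with HC alone. The difference of -1.09 points [-2.28, 0.07] included 0. The summed level of Iglc3 was 271.3 CPM with gluten and 554.4 CPM with HC alone, a log2 ratio of -1.03. Here 2 cells of the HC alone library held 352 and 260 of its 2037 Iglc3 UMIs, while no cell of the gluten library held more than 13, and without the highest cell the ratio was -0.78. Iglc2 and Iglc3 are near-identical copies, so the counting may have split their reads. Igkc stood at 10480 and 10380 CPM and Ighm at 1851 and 1726 CPM, close to each other across libraries. Ighd, the IgD heavy chain, was lower, at 347.6 CPM with gluten against 612.4 CPM with HC alone (log2 ratio -0.82 [-0.93, -0.71]). Igkc was found in 28.9% and 20.8% of T cells and Ighm in 30.5% and 43.7%, while Ighd was found in 0.341% and 0.524%. In barcodes with endothelial markers, at median depths of 3783.5 and 6163 UMIs, Igkc was found in 25.8% and 20.4% and Ighm in 5.30% and 11.97%. The source of these UMIs was not tested.

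**Figure D1:**
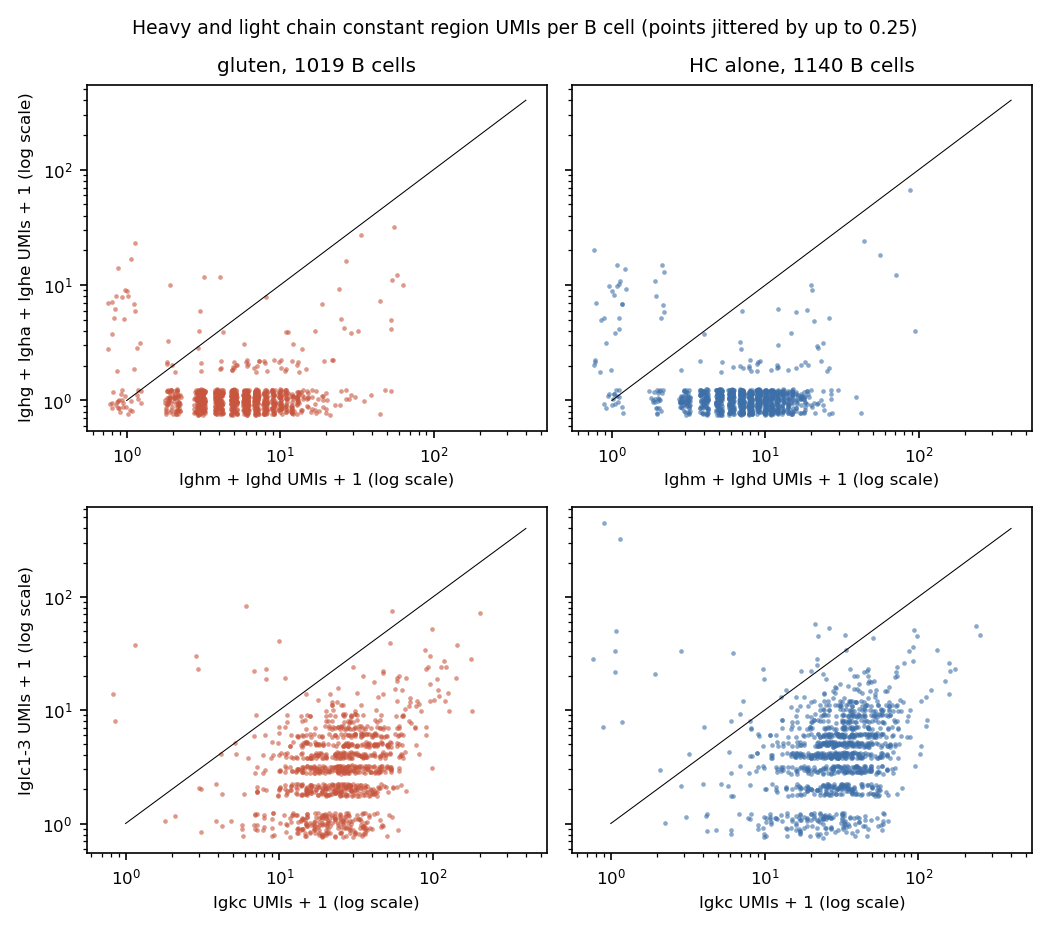
UMIs of constant region genes in each B cell, plus 1 and on log scales, in the gluten library on the left and the HC alone library on the right, with switched against IgM and IgD heavy chains in the upper row and lambda against kappa light chains in the lower row. Each point is 1 cell, and the few cells above the diagonal lines include the 25 and 26 switched and the 13 and 27 lambda cells.

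Most of the B cell transcriptome differed little between the libraries. A gene counted as measured when the library where it was higher held 50 or more of its UMIs. Of 6313 such genes, 105 (1.66%) were 2-fold or more higher with gluten and 196 (3.1%) were 2-fold or more lower. In T cells the same rule gave 2.36% higher and 2.1% lower of 8682 genes. The median log2 ratio was -0.13 over the B cell genes so measured and -0.11 over the 11053 genes with at least 10 UMIs in both libraries together, of which 39.4% were higher and 60.6% lower, and 5.06% and 7.1% were so by 2-fold. The split of the 2-fold genes depended on the scaling, with 34.9% of them higher in the CPM values and 47.5% with TMM scaling, which moves every ratio up by 0.08. A ratio between -0.08 and 0 changes its sign with TMM. At least 50% of the UMIs of a gene lay in 1 cell for 40 measured genes with gluten and 21 with HC alone, so the highest cell is given where it decides a value.

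**Figure D2:**
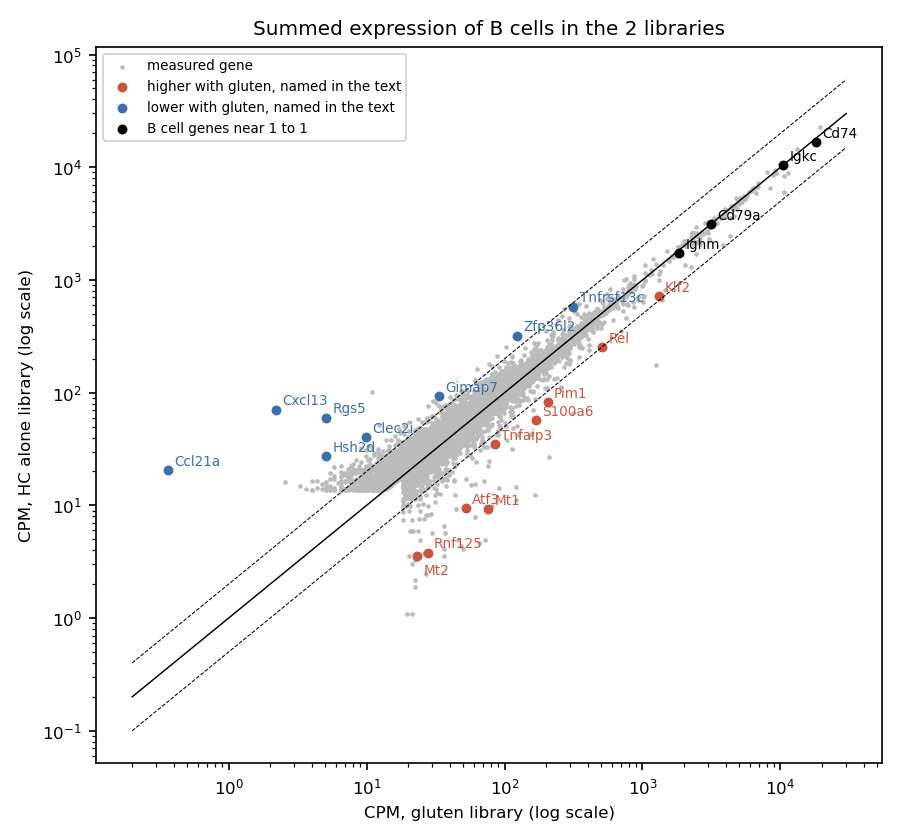
Summed expression of each measured gene in B cells, as CPM on log scales, with the gluten library on the horizontal axis and the HC alone library on the vertical axis. Dashed lines mark 2-fold; Cd79a, Igkc, Ighm and Cd74 lie near the 1 to 1 line, Mt1 and Atf3 lie to the higher side with gluten and Hsh2d and Clec2i to the lower side.

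Metallothioneins, small proteins that bind zinc and copper, were among the genes farthest apart. Mt1 had 209 UMIs (76.3 CPM) in B cells of the gluten library and 34 UMIs (9.25 CPM) in the HC alone library, a log2 ratio of 3.04 [2.52, 3.61]. Mt2 had 64 and 13 UMIs (23.4 and 3.54 CPM), a ratio of 2.72. Both genes were higher with gluten in T cells too, with a ratio of 1.02 for each. Mt1 was detected in 16.9% of B cells with gluten and 2.81% with HC alone, and after thinning in 7.32% and 1.02%. T cells, at median depths of 2354 and 2827 UMIs, gave 19.4% and 6.19%, and 7.64% and 1.84% after thinning. The B cell shares were not above those of T cells after thinning, and the part of free RNA was not tested.

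The promoters of both genes are shown because metal-induced transcription of metallothioneins acts through short elements near their start. The windows run from 250 bases before to 50 after the start (RefSeq, GRCm38.p6). Mt1 lies at chr8:94178839-94179138 on the plus strand and Mt2 at chr8:94172368-94172667 on the plus strand. Capitals mark matches on either strand to the motif TGCGCNC or TGCACNC, where N is any base, the core of the metal response element, of which Mt1 held 3 and Mt2 held 4. The core is common, and 25.7% of 32851 promoter windows held a match.
Mt1: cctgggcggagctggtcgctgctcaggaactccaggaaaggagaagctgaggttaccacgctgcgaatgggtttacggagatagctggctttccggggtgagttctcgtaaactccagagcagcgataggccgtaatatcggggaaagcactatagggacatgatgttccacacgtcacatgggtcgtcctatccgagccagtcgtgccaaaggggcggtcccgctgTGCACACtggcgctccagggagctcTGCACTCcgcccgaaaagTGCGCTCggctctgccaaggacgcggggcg
Mt2: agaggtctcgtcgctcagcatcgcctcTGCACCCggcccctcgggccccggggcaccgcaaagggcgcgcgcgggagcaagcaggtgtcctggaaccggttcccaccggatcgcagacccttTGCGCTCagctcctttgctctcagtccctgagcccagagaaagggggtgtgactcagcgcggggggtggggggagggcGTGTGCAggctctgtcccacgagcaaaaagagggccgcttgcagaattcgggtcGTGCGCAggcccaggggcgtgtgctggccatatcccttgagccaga

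Genes of the NF-kappa-B pathway split. Rel, the c-Rel subunit that B cells use to divide and survive, stood at 511.9 CPM with gluten and 252 CPM with HC alone (log2 ratio 1.02 [0.90, 1.14]). Tnfaip3, which encodes the A20 brake on the pathway, stood at 85.1 and 34.8 CPM (1.29 [0.97, 1.61]). Nfkbia, the I-kappa-B alpha inhibitor, stood at 610.1 and 438.5 CPM (0.48 [0.38, 0.58]), with a ratio of 0.30 without cells carrying other lineage markers. These 3 genes were higher with gluten in T cells too, with ratios of 1.35, 1.66 and 0.88. Over the whole list of 15 genes, 5 were higher and 10 lower in B cells, where 60.6% of all genes were lower. The median was -0.11, the same as that of all genes. In T cells 12 of the 15 were higher, with a median of 0.39, where 43.1% of all genes were higher. Rel was detected in 40.8% of thinned B cells with gluten and 23.4% with HC alone (63.8% and 49.5% unthinned), against 16.6% and 8.002% of thinned T cells.

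The promoters of Rel and Tnfaip3 are shown as the 2 members of the list at least 2-fold higher. Rel lies at chr11:23770920-23771219 and Tnfaip3 at chr10:19015361-19015660, both on the minus strand and printed in the direction of transcription (RefSeq, GRCm38.p6). Capitals mark a match on either strand to GGG, any 2 bases, then TTTCC, a kappa-B motif, 91 bases before the start of Rel and 12 before that of Tnfaip3. A second Tnfaip3 window of the table, at chr10:19011914-19012213, held no match and is not printed. A match was present in 6 of 15 promoter windows of list genes (40%) and in 1.63% of all promoter windows. These are counts of windows and not of genes, since a gene such as Tnfaip3 can have several. A match is a description of the sequence and not a bound site.
Rel: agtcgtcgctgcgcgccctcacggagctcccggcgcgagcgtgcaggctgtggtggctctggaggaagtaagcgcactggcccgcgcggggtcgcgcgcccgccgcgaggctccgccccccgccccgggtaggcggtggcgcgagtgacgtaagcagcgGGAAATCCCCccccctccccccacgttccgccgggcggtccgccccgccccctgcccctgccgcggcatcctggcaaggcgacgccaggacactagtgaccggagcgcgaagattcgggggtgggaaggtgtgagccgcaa
Tnfaip3: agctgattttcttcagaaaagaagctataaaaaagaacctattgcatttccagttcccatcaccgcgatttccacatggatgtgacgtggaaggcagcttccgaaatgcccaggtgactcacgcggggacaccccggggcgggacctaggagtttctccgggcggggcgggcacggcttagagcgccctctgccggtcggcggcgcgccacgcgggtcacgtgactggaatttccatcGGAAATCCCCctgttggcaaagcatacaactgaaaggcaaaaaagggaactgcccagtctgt

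Immediate early genes, which are switched on within minutes by receptor signals and also by tissue dissociation, were mostly higher. Of 22 members 17 were higher and 5 lower with gluten, with a median of 0.41. Of all genes 39.4% were higher, with a median of -0.11. In T cells 17 of the 22 were higher too, where 43.1% of all genes were, with a median of 0.31. Atf3, a stress-induced factor, had 144 UMIs (52.6 CPM) with gluten and 35 UMIs (9.53 CPM) with HC alone (2.46 [1.92, 3.04]). Fosb stood at 161 and 70.8 CPM (1.19) and Junb at 2463 and 1701 CPM (0.53 [0.48, 0.58]). Dusp2, a phosphatase that restrains MAP kinases, went the other way, at 322.7 and 525 CPM (-0.70), as did Zfp36, at 223.8 and 325 CPM (-0.54). The surface activation markers Cd69 and Cd83 were slightly lower, at 444.7 and 523.9 CPM (-0.24) and at 335.9 and 393.6 CPM (-0.23). Of 24 activation genes 18 were higher and 6 lower, with a median of 0.22, where 39.4% of all genes were higher.

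Chaperone genes showed the same direction. Over all genes, 39.4% were higher in B cells and 43.1% in T cells. Of 18 cytosolic heat shock genes 15 were higher with gluten (median 0.32 in B cells, 0.27 in T cells), among them Hspa8 at 2603 and 2101 CPM (0.31) and Hspa1a at 30.7 and 16.3 CPM (0.91, and 1.47 without cells carrying other lineage markers). Of 18 genes of the unfolded protein response, which balances folding in the endoplasmic reticulum, 14 were higher (median 0.22 in B cells, 0.27 in T cells). Hspa5, its central chaperone, stood at 860.2 and 636.6 CPM (0.43), and Atf4, its transcription factor arm, at 346.5 and 206 CPM (0.75). All 13 genes of the mitochondrial genome were higher, with a median of 0.21, and the mitochondrial share of UMIs per cell differed in the same direction.

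**Figure D3:**
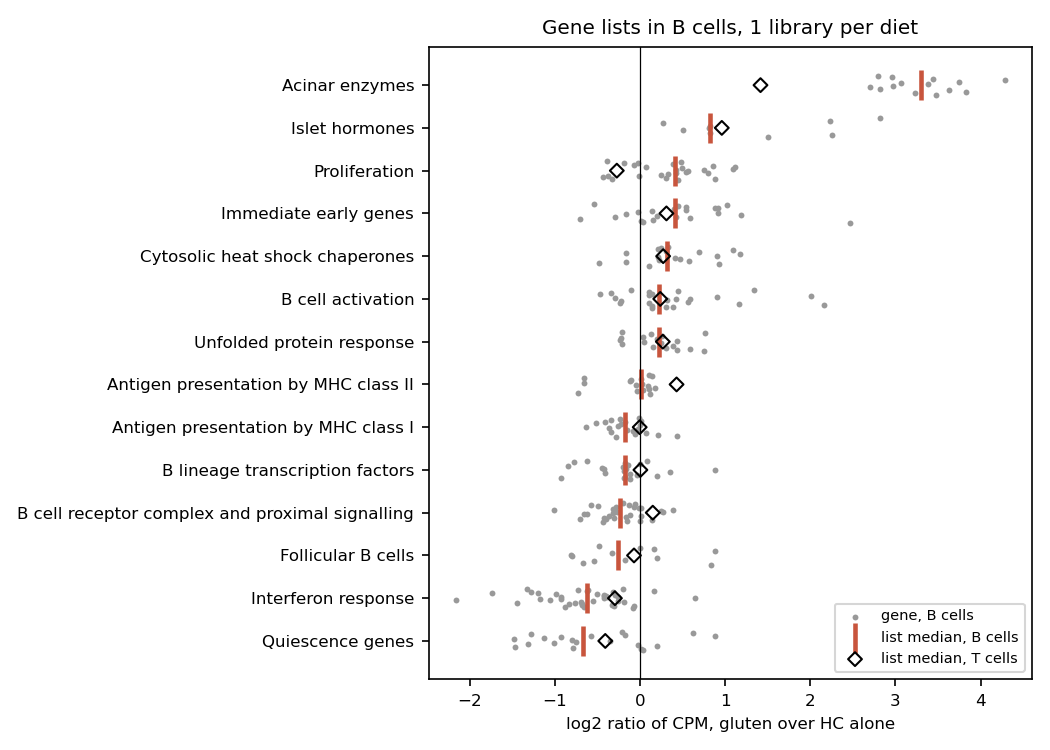
Log2 ratio of CPM, gluten over HC alone, for the genes of 14 lists in B cells (points), with the list median in B cells (bars) and in T cells (diamonds). The interferon and quiescence lists lie lowest among those plotted, with medians of -0.62 and -0.67 in B cells, while immediate early and proliferation lists lie at 0.41 in B cells.

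Genes of the interferon response, which interferons induce and which include GTPases and antiviral factors, were lower almost throughout. Of 40 members with at least 10 UMIs, 38 were lower with gluten and 2 higher, where 60.6% of all genes were lower, and the median was -0.62. In T cells 33 of 46 were lower, where 56.9% of all genes were, with a median of -0.30. Slfn2, a Schlafen protein tied to lymphocyte quiescence in mice, stood at 87.6 CPM with gluten and 213.4 CPM with HC alone (-1.28). Igtp, an interferon-induced GTPase, stood at 39.1 and 74.3 CPM (-0.93), and Gbp7, a guanylate-binding protein, had 115 and 248 UMIs (42.0 and 67.5 CPM). Irf1, an interferon-induced transcription factor that NF-kappa-B also induces, was higher, at 296.8 and 190 CPM (0.64 [0.50, 0.79]), and was higher in T cells as well (0.86). Cxcl10, an interferon-induced chemokine that is not on the list, had 249 UMIs with gluten and 52 with HC alone, but 104 of the 249 lay in 1 cell, and its ratio was 2.68 with that cell, 2.43 without the highest cells and 2.12 without cells carrying other lineage markers.

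The promoter of Gbp7 is shown as one interferon-induced member. It lies at chr3:142530086-142530385 on the plus strand (RefSeq, GRCm38.p6). Capitals mark a match on either strand to TTTC, any 2 bases, then TTTC, a core of the interferon-stimulated response element, 53 bases before the start. A match was present in 26 of 43 promoter windows of list genes (60.5%) and in 3.44% of all windows. These too are counts of windows and not of genes.
Gbp7: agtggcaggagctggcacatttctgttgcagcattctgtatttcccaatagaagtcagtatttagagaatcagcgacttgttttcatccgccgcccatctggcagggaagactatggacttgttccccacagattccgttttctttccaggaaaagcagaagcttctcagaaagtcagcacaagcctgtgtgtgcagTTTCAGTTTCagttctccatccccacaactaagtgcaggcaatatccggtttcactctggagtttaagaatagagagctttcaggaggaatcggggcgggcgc

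Genes of lymphocyte quiescence were lower as a list. Of 20 members 15 were lower with gluten and 5 higher, with a median of -0.67, where 60.6% of all genes were lower. At least 2-fold lower were 6 members. The list holds GIMAP genes, such as Gimap7 (-1.48), its lowest member, and Gimap3 (-1.01). The GIMAP result given next is therefore not separate from it. The share at least 2-fold lower among all genes was 7.1%. In T cells 15 of 21 were lower, with a median of -0.41, where 56.9% of all genes were lower. Zfp36l2 (chr17:84183931-84187947, mm10), which destabilises AU-rich mRNAs and holds developing B cells out of the cell cycle, had 339 UMIs (123.8 CPM) with gluten and 1179 UMIs (320.9 CPM) with HC alone (-1.38 [-1.55, -1.20]). Its T cell ratio was -0.20. Detection went with the level, at 11.6% of thinned B cells with gluten and 30.2% with HC alone (23.7% and 55.7% unthinned). Cdkn2d, an inhibitor of cyclin-dependent kinases, stood at 27.8 and 76.8 CPM (-1.47 [-1.85, -1.10]).

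The GIMAP genes, GTPases of lymphocytes that bear on their survival, lie side by side on mouse chromosome 6 (chr6:48647234-48770851, mm10, 8 genes over 123.6 kb). All 8 were lower in B cells with gluten, where 60.6% of all genes were lower. Their summed level was 703.5 CPM with gluten and 1334 CPM with HC alone. Gimap7 had 92 and 345 UMIs (-1.48 [-1.83, -1.15]), Gimap1 had 281 and 936 UMIs (-1.31 [-1.51, -1.12]), and Gimap5 lay nearest to 0 (-0.35 [-0.63, -0.08]). In T cells the sum was 1174 and 1462 CPM, and Gimap6 and Gimap5 had ratios of 0.15 and 0.08 there. Gimap1 was detected in 7.75% of thinned B cells with gluten and 24.1% with HC alone (20.9% and 51.7% unthinned), against 18.6% and 29.9% of thinned T cells.

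Among the other genes farthest apart, Rnf125, a ubiquitin ligase of RIG-I signalling, had 76 UMIs (27.8 CPM) with gluten and 14 UMIs (3.81 CPM) with HC alone (2.86 [2.03, 3.80]). Genes lower with gluten included Hsh2d (chr8:72189638-72201527, mm10), an adaptor of haematopoietic cells, with 14 and 101 UMIs (-2.43 [-3.35, -1.61]). Clec2i, a C-type lectin, had 27 and 149 UMIs (-2.04), and Insig2, which retains the sterol sensor in the endoplasmic reticulum, had 25 and 119 UMIs (-1.83). Rnf219 had 9 and 55 UMIs (-2.19). The T cell ratios of Hsh2d and Clec2i were -1.57 and -1.17, below 0 as in B cells.

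Follicular genes did not move as one. Of 12 members 5 were higher and 7 lower, with a median of -0.26, where 60.6% of all genes were lower. Klf2, which drives expression of egress and homing receptors and marks resting follicular B cells, stood at 1313 CPM with gluten and 714.7 CPM with HC alone (0.88 [0.80, 0.95]). Its T cell ratio was -0.10 [-0.18, -0.03]. Klf2 was detected in 65.3% of thinned B cells with gluten and 46.9% with HC alone (82.1% and 70.7% unthinned), against 36.2% and 42.8% of thinned T cells. Ccr7, the receptor for lymphoid tissue chemokines, was higher, at 239.1 and 134.7 CPM (0.83 [0.66, 1.00]), and had a T cell ratio of 0.95. Cxcr5, the receptor for the follicle chemokine CXCL13, was lower, at 48.2 and 77.0 CPM (-0.68 [-0.99, -0.37]). Fcer2a stood at 203.4 and 295 CPM (-0.54).

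Detection at equal depth gave the same order for these genes. In cells thinned to 1000 UMIs, Ighd was detected in 33.0% of B cells with gluten and 45.5% with HC alone (53.4% and 76.8% unthinned). Fcer2a was detected in 20.2% and 27.5%, Cr2, the complement receptor CD21, in 7.97% and 12.2%, and Cxcr5 in 4.41% and 9.37%. Unthinned, the shares were 35.7% and 52.8% for Fcer2a, 20.3% and 31.5% for Cr2 and 11.7% and 21.4% for Cxcr5. T cells, unthinned, gave 0.171% and 0.143% for Fcer2a and 2.98% and 3.62% for Cxcr5. Ccr7 was detected in 20.5% and 16.0% of thinned B cells and 14.1% and 9.60% of thinned T cells.

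**Figure D4:**
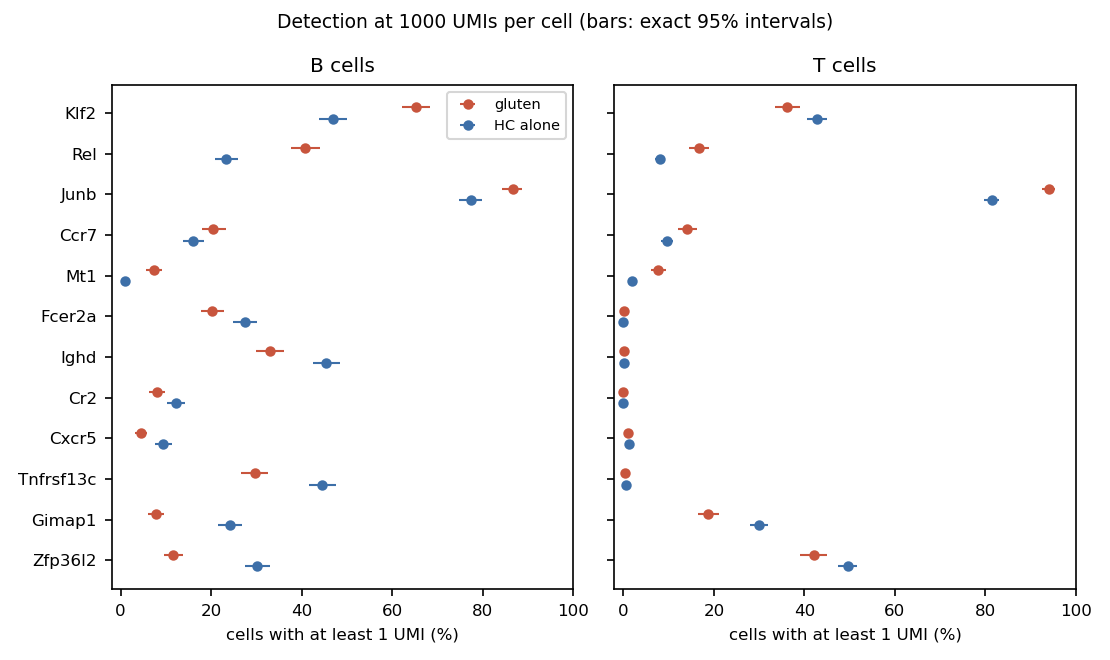
Share of cells with at least 1 UMI of each gene after thinning to 1000 UMIs, in B cells and T cells of the gluten library and the HC alone library, with exact 95% intervals for counting error. Klf2, Rel and Mt1 are detected in more B cells with gluten, and Ighd, Tnfrsf13c, Gimap1 and Zfp36l2 in fewer.

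Of 20 homing receptors, with Ccr7 from above among them, 14 were lower and 6 higher, where 60.6% of all genes were lower. The median of -0.09 lay next to the -0.11 of all genes. Ccr6, the receptor for CCL20, stood at 81.4 and 173.1 CPM (-1.09 [-1.31, -0.87]), and Cxcr3, a receptor for interferon-induced chemokines, at 9.49 and 19.9 CPM (-1.07 [-1.77, -0.40]). S1pr1, the sphingosine receptor for egress, was near equal, at 60.6 and 54.2 CPM (0.16 [-0.14, 0.47]). The chemokine receptors thus differed in direction, with Ccr7 higher and Ccr6, Cxcr5 and Cxcr3 lower with gluten.

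Receptors and effectors of survival were divided. Tnfrsf13c, the BAFF receptor, stood at 315.4 CPM with gluten and 580.8 CPM with HC alone (-0.88). It was detected in 29.6% of thinned B cells with gluten and 44.6% with HC alone (50.6% and 78.9% unthinned), against 0.351% and 0.485% of thinned T cells (0.853% and 2.05% unthinned). Tnfrsf13b, which encodes TACI, stood at 80.7 and 104.5 CPM (-0.37). Bcl2, which blocks apoptosis, stood at 90.5 and 142.1 CPM (-0.65). The pro-apoptotic genes Bcl2l11 and Pmaip1 were higher, at 68.3 and 37.8 CPM (0.85) and 24.1 and 7.62 CPM (1.66). Pim1, a kinase that favours survival, was also higher, at 205.9 and 83.0 CPM (1.31 [1.11, 1.52]), with a T cell ratio of 0.99. Over the list 9 of 17 were higher and 8 lower, where 39.4% of all genes were higher. The median was 0.01, and -0.06 without the highest cell of each gene.

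Of 30 genes of the receptor complex and its proximal signalling 23 were lower with gluten and 7 higher, with a median of -0.24, where 60.6% of all genes were lower with a median of -0.11. Btk, the kinase behind the receptor, stood at 47.1 and 77.0 CPM (-0.71 [-1.02, -0.40]). The inhibitory receptors Cd22 and Siglecg stood at 124.5 and 167.4 CPM (-0.43) and at 216.5 and 322.8 CPM (-0.58). In T cells 15 of the 25 measured members were higher, with a median of 0.15, where 43.1% of all genes were higher.

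Transcription factors of the lineage followed a like order, with 17 of 22 lower and a median of -0.18, where 60.6% of all genes were lower. Pax5, the identity factor of B cells, stood at 173.1 and 236.5 CPM (-0.45), and Ebf1, its partner in specification, at 795.5 and 909.6 CPM (-0.19). Bcl11a stood at 99.7 and 189.7 CPM (-0.93 [-1.14, -0.72]). Pou2f2, which encodes OCT2, stood at 244.6 and 439 CPM (-0.84 [-0.98, -0.71]) and had a T cell ratio of -0.94. Spib, an ETS factor, stood at 78.9 and 134.7 CPM (-0.77). Klf2, named above, was the member farthest out on the higher side.

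Antigen presentation on MHC class II was close to equal. Cd74, the invariant chain, stood at 18100 CPM with gluten and 16660 CPM with HC alone (0.12), and H2-Ab1 at 4582 and 4256 CPM (0.11). Over 16 genes 9 were higher and 7 lower, with a median of 0.01, where 39.4% of all genes were higher. Ciita, the coactivator that switches class II genes on, was lower, at 93.8 and 155.4 CPM (-0.73 [-0.95, -0.51]). For class I, 17 of 21 genes were lower, with a median of -0.17. Of all genes 60.6% were lower, and their median of -0.11 lay close to that of class I. Class I members included B2m at 1497 and 1814 CPM (-0.28) and the immunoproteasome subunit Psmb8 at 577.9 and 826.3 CPM (-0.52). Copies among the H2-Q genes may share reads.

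Costimulatory and checkpoint genes had members on both sides, with 5 of 14 higher and a median of -0.20. Of all genes, 39.4% were higher, a share near that of this list. Cd86, a ligand of CD28, stood at 125.6 and 100.7 CPM (0.32 [0.10, 0.53]). Cd274, which encodes PD-L1, stood at 58.4 and 26.1 CPM (1.16 [0.79, 1.54]), with a T cell ratio of 0.51. Btla, an inhibitory receptor, stood at 35.8 and 75.9 CPM (-1.09 [-1.43, -0.75]). Among cytokines, Ltb, the lymphotoxin subunit that shapes lymphoid tissue, stood at 733.5 and 999.2 CPM (-0.45 [-0.53, -0.37]), and Il16 at 30.3 and 83.8 CPM (-1.47 [-1.84, -1.11]). Il1b, the inflammatory cytokine interleukin-1 beta, had 54 and 4 UMIs, held by 14 and 2 cells, with 23 of the 54 in 1 cell.

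Genes of the germinal centre were higher at low counts. Of 12 members 9 were higher with gluten and 3 lower, with a median of 0.55, where 39.4% of all genes were higher. Rgs13, a signalling regulator of germinal centre B cells, had 42 UMIs in 11 cells with gluten and 3 UMIs in 3 cells with HC alone (4.23 [2.58, 6.57]). Basp1 stood at 75.6 and 22.3 CPM (1.76 [1.38, 2.15]) and Neil1, a DNA glycosylase, at 17.5 and 8.17 CPM (1.10 [0.41, 1.81]). Bcl6, the master factor of the germinal centre, was near equal, with 36 and 51 UMIs (-0.08 [-0.74, 0.56]).

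Proliferation genes were higher in B cells. Of 26 members 18 were higher and 8 lower with gluten, with a median of 0.41, where 39.4% of all genes were higher. In T cells 3 were higher and 23 lower, with a median of -0.27, where 56.9% of all genes were lower. The difference between the cell types was not tested. Mki67, a marker of cycling cells, had 114 UMIs (41.6 CPM) with gluten and 72 UMIs (19.6 CPM) with HC alone (1.09 [0.65, 1.53]), with a T cell ratio of -0.02. Rrm2, which makes deoxynucleotides, had 84 and 52 UMIs, held by 20 and 11 cells. Ube2c, a mitotic ubiquitin carrier, had 147 and 259 UMIs (-0.39), and 0.36 without the highest cell of each library. The share of cycling cells, with at least 3 UMIs of 12 cell cycle genes, was also higher with gluten, but the interval of the difference included 0. It was 4.02% [2.90, 5.42] with gluten and 3.42% [2.44, 4.65] with HC alone, and 1.29% and 0.928% after thinning. The unthinned difference of 0.60 points had an interval of [-1.004, 2.26]. T cells gave 8.27% and 7.71%. Odc1, which makes polyamines for growth, was higher in both cell types, at 257 and 112.4 CPM in B cells (1.19 [1.02, 1.37]) and with a T cell ratio of 1.60.

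Lists of other B cell states gave weaker contrasts. Of all genes, 39.4% were higher and 60.6% lower, with a median of -0.11. Of 10 B-1 and atypical B cell genes 9 were higher, with a median of 0.23, and 0.55 without the cells carrying other lineage markers. S100a6, a calcium-binding protein, stood at 169.4 and 57.2 CPM (1.57 [1.33, 1.81]) and Ahnak at 43.5 and 22.3 CPM (0.96). Without those cells the ratios were 2.42 and 1.48. In a finer clustering of the B cells (resolution 1.5), S100a4 and S100a6 led a group of 52 cells. It held 39 cells with gluten and 13 with HC alone, with a median of 5073 UMIs. Its 10 leading genes also held Spp1, Il1b, Alox5ap, Fcer1g and Tyrobp, which are not B-1 genes of the list. The part of this group in the S100a6 ratio was not tested. Of 8 age-associated B cell genes 6 were lower, with a median of -0.63, and Tbx21, the T-bet factor, had 5 and 20 UMIs. Apoe, on that list, stood at 261 and 478.2 CPM (-0.87), but 932 of its 1757 UMIs in the HC alone library lay in 1 cell, and without cells of other lineages the ratio was 0.51. Of 9 memory genes 5 were lower (median -0.58, and -0.28 without cells carrying other lineage markers), a share below the 60.6% of all genes. Of 11 marginal zone genes 9 were lower (median -0.24). Of 10 plasma cell genes 6 were higher (median 0.28), with Jchain at 23.7 and 10.1 CPM (1.24) among cells that the rule caps below 5 Jchain UMIs.

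Some of the widest ratios belonged to genes of other cell types. Of all genes, 39.4% were higher and 60.6% lower, and 5.06% were at least 2-fold higher. All 14 acinar enzymes with 10 UMIs were at least 2-fold higher with gluten in B cells, with summed levels of 977.7 and 101.5 CPM and a median of 3.30, which was 1.17 without the 79 cells with at least 10 acinar UMIs. The median in T cells was 1.41. Prss2, a trypsinogen, had 452 UMIs with gluten and 45 with HC alone. Ctrc, Sycn, Amy1 and 2210010C04Rik, further acinar products, were higher by log2 ratios of 3.46, 3.35, 3.57 and 3.89. All 9 islet hormone genes were higher, with sums of 19378 and 10501 CPM (median 0.82 in B cells, 0.96 in T cells), among them Ins2 at 10620 and 6024 CPM (0.82). For Sst 749 of the 3430 UMIs with gluten lay in 1 cell. Rbp4, made in islet cells, had 334 and 53 UMIs, with 89 in 1 cell, and a ratio of 2.19 without cells carrying other lineage markers. Of 9 macrophage genes 8 were higher (median 0.65) although their sum, which holds Apoe, was 338.8 and 524.8 CPM, and of 10 dendritic cell genes 8 were higher (median 0.78, sums 382.2 and 256.1 CPM). All 8 mesenchymal genes were lower (median -1.45, sums 135.8 and 379.7 CPM), and 6 of 8 endothelial genes were lower (median -0.43, sums 326.8 and 425.4 CPM). Without the cells carrying other lineage markers, too few members of either list held 10 UMIs to give a median. The part of cells of other types and of free RNA in the other ratios was not tested.

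Several genes lower with gluten came from very few droplets. Cxcl13, the chemokine that draws B cells into follicles, had 6 UMIs with gluten and 260 with HC alone, of which 252 lay in 1 cell. That cell held 16455 UMIs, with 262 of Mfge8, 137 of Clu and 27 of Cr2, genes chosen after their values were seen, and ranked among the 6% of barcodes with the highest doublet scores. Without cells of other lineages the Cxcl13 ratio was 0.03. Ccl21a had 1 and 76 UMIs, 74 of them in 1 cell, and Rgs5 and Mgp had 136 of 221 and 168 of 371 in 1 cell of the HC alone library. Spp1, osteopontin, had 99 UMIs with gluten and 15 with HC alone, 76 of the 99 in 1 cell, and a ratio of 1.14 without the highest cells. Sparcl1 had 34 and 189 UMIs, 69 of the 189 in 1 cell. Tppp3 had 71 and 14 UMIs in 13 and 9 cells, and a ratio of 4.35 without cells of other lineages. Ppic had 7 and 59 UMIs in 6 and 11 cells.

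Within each library, switched cells were set beside unswitched cells, leaving out those with other lineage markers. This left 25 and 25 switched and 872 and 1051 unswitched cells. Shares of genes within a library are over genes with at least 3 UMIs expected in each of the compared groups at equal rates, in both libraries. Switched cells were at least 2-fold higher for 5.34% of 3949 such genes with gluten and 3.52% with HC alone. In both libraries, 30.7% were higher and 26.8% lower. Basp1 stood at 578 CPM in switched against 24.3 CPM in unswitched cells with gluten (log2 ratio 4.58), and at 256.5 against 8.45 CPM with HC alone (4.92). Anxa2, a membrane-binding annexin, had ratios of 4.26 and 3.81 (27 and 12 UMIs in switched cells). Ada, which clears adenosine, had 4.09 and 4.09 (8 and 8 UMIs). Mef2b, a germinal centre transcription factor, had 2.97 and 3.68 (9 and 10 UMIs). The integrin chain Itgb1 had 2.54 and 2.88, and the chemokine receptor Cxcr3 2.68 and 2.19 (6 and 10 UMIs). Basp1, Anxa2, Ada, Mef2b and Cxcr3 had under 3 UMIs expected and lie outside the shares above. They could be named only because they were high in switched cells. Zbtb20, a factor of plasma and memory cells, had 2.10 and 2.11. Lower in switched cells were Satb1, a chromatin organiser (-2.80 and -3.90), Fcer2a (-1.69 and -1.75) and Foxp1, which maintains mature follicular cells (-1.86 and -1.54).

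Of 12 follicular genes, Ighd among them, which the isotype rule used, 11 were lower in switched cells in both, where 26.8% of all genes were, with medians of -1.28 and -1.02 against 0.05 and 0.01 for all genes. Of 15 homing receptors 9 were lower in both (medians -0.50 and -0.78). Of 15 proliferation genes 11 were higher in both (0.93 and 0.97), where 30.7% of all genes were, and 0 were lower in both. Of the 25 and 26 switched cells counted above, 6 with gluten and 9 with HC alone were also cycling cells by the cell cycle rule. Of 19 interferon genes 9 were lower and 4 higher in both (-0.79 and -0.22). Apoe, a macrophage gene as well, was higher in switched cells (2.61 and 4.07). C1qa and C1qb, which define macrophages, had 0 UMIs each in switched cells with gluten, against 0 and 2 in those with HC alone. The rule allows at most 1 C1q UMI per cell, so these low counts were fixed in advance and say nothing about macrophage RNA. The part of other cells' RNA in these ratios was not tested. The isotype rule chose these cells by immunoglobulin genes alone, and switched cells were deeper than unswitched ones in each library.

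**Figure D5:**
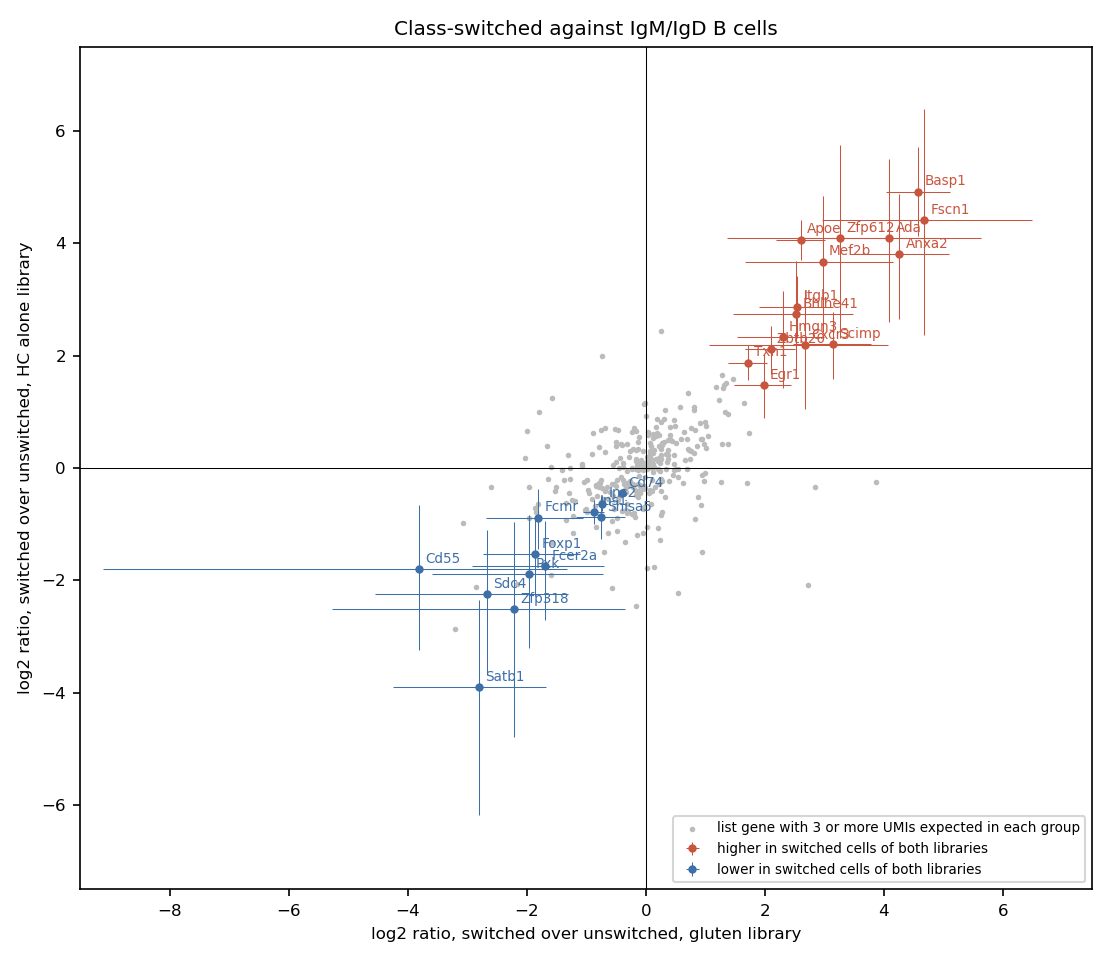
Log2 ratio of switched over unswitched B cells for list genes with 3 or more UMIs expected in each group (grey) and for named genes (coloured, with bars for the 95% counting intervals), with the gluten library on the horizontal axis and the HC alone library on the vertical axis. Basp1, Ada and Anxa2 lie high in both libraries and Satb1 and Fcer2a low in both.

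Cycling B cells, 37 with gluten and 31 with HC alone, were set beside the other 960 and 1087 in the same way. Genes at least 2-fold higher in cycling cells were 13.8% of 6693 with gluten and 9.47% with HC alone, and 38.4% of genes were higher and 36% lower in both. All 12 follicular genes were lower in cycling cells in both libraries (medians -1.92 and -1.64). Of 16 MHC class II genes 15 were lower in both (-0.90 and -0.85), and of 19 immediate early genes 17 were (-1.24 and -1.14). Klf2 had ratios of -2.44 and -1.66, and Tsc22d3, a glucocorticoid-induced brake on activation, -2.16 and -2.24. Ighg2b was higher (2.82 and 3.21) and Ighd lower (-1.89 and -2.29). Some cycling cells were also switched cells, so the switched and cycling comparisons are not separate results. Cycling cells were the deepest, with medians of 9890 and 9193 UMIs, and all 9 islet hormones, which are genes of endocrine cells, were lower in them in both libraries (medians -1.94 and -1.24).

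Unswitched cells with an IgD UMI, 487 with gluten and 817 with HC alone, were set beside those without, 322 and 185, all at 1000 UMIs or more. Of 7923 genes, 3.29% with gluten and 4.39% with HC alone were at least 2-fold higher in the cells with an IgD UMI. In both libraries, 24.3% were higher and 27.5% lower. Follicular genes were higher in IgD-positive cells in both libraries for 10 of 12 (medians 0.31 and 0.17), with Ighd itself fixed by the choice. Fcmr, the IgM Fc receptor, had ratios of 0.31 and 0.72. Lower in both were S100a6 (-1.88 and -1.54), Lgals1, galectin-1 (-1.49 and -1.56), Ahnak (-1.35 and -2.45) and Itgb1 (-1.13 and -1.65). Zeb2, a factor of age-associated B cells, had -0.97 and -1.10, and 4 of the 5 age-associated genes were lower in both. Cells without an IgD UMI include cells in which the transcript was missed.

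Unsupervised clustering of the B cells gave 7 groups, which describe how the cells varied and test nothing. The largest group held 751 cells, 662 from the gluten library and 89 from the HC alone library. It was led by S100a4 and S100a6 together with the acinar gene Prss2, and has no type name. S100a4 and S100a6 also led the group of 52 cells in the finer clustering described above. A second group of 529 cells, 95 with gluten and 434 with HC alone, was led by haemoglobin genes, Clec2i and Zfp36l2. The haemoglobin lead does not describe the group as a whole. At least 3 UMIs of erythroid genes were held by only 2 B cells in each library. In the finer clustering (resolution 1.5), haemoglobin genes led 69 cells, 46 with gluten and 23 with HC alone. Another of the 7 groups, with 481 cells, 110 and 371, had 6 interferon genes among its 10 leading genes, among them Ly6a and Gbp7. The groups of 751, 529 and 481 cells follow the library, so with 1 library per diet library and kind of B cell cannot be told apart. A group of 130 cells, 49 and 81, had 8 proliferation genes among the leading 10, such as Pclaf, Ube2c and Mki67. A group of 156 cells, 41 and 115, was led by Fos, and one of 90 cells was shallow, with a median of 773.5 UMIs. The last, 10 and 12 cells with a median of 13120 UMIs, was led by Glycam1, Igfbp7 and Sparc, genes of endothelial and stromal cells.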

How the data were processed

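The authors deposited 1 table of raw counts (UMI counts per gene and barcode, not normalized) per library. Per the submitters' processing notes, the tools included Cell Ranger 4.0.0 and the build was mm10. The calling of barcodes is not given in the sources used here. Gene symbols came from GENCODE vM21, with 30934 of 31053 identifiers matched. No deposited column was left unused (0).

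B cells and T cells were chosen by the marker rules in the report. The rule, the 44 gene lists and the comparisons were chosen with earlier results of these data known. Per library, UMIs of all B cells were added up and scaled to CPM (per 1000000 UMIs of those cells), and T cells likewise. The log2 ratio, gluten over HC alone, has an exact conditional binomial interval, shares have Clopper-Pearson and their differences Newcombe intervals, all at 95% and for counting error only, since there is 1 library per diet and no residual spread between samples. UMIs, unlike reads, count molecules, but droplets also hold free RNA. A gene was measured when the library where its CPM was higher held 50 UMIs or more of it, and apart at 2-fold. List members needed 10 UMIs over both libraries. A count of 0 was set to 3 in a ratio, and no ratio was given where both counts were 3 or fewer. Within a library, counts of genes and lists used genes with at least 3 UMIs expected in each group. Genes were named when the interval bound nearer 0 lay farthest out, 12 in each direction, leaving out acinar enzymes, hormones and variable segments, plus list members that lie farthest out or define a list. Genes named within B cells have the bound farthest out in both libraries, a ranking set after the data were seen, or are list members.

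For shares of cells with a UMI, cells were thinned to 1000 UMIs. Clustering used 2000 variable genes without immunoglobulin, hormone, acinar, mitochondrial and ribosomal genes, 30 components, 15 neighbours and Leiden resolution 0.8, with no integration. No doublets were removed. Scrublet's own threshold marked under 0.5% of barcodes, so an alternative leaves out the 6% with the highest score. The calculations were tested on simulated counts. Tools were Python 3.11.15, numpy 2.4.6, scipy 1.17.1, scanpy 1.11.5 and edgeR 4.0.16, the last for TMM factors only. A few genes and the results that need them are not reported here.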

Additional observations from a re-analysis of the deposited data

Results flagged for a closer look

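Signal outside the main measurement was present in barcodes that the rule left out. Barcodes with B cell markers, low hormone content and at least 1 Cd3 UMI numbered 298 in the gluten library and 186 in the HC alone library. Of these, 264 and 139 held at least 3 Cd3 UMIs, with medians of 6780 and 6563 UMIs, and 20.8% and 68.3% of those lay among the 6% of barcodes with the highest doublet score. Barcodes with B cell markers and 5 or more Jchain UMIs numbered 69 with gluten and 30 with HC alone. Of these, 27 and 17 met all the other limits, with medians of 16515 and 20194 UMIs and with Ms4a1 in 40.7% and 76.5%.

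Among genes of the lists of B cell and shared functions with at least 50 UMIs in each cell type, 2 had B cell and T cell ratios of opposite sign that lay at least 0.5 from 0 in each with intervals that exclude 0. The difference was not tested. Neither the number of list genes searched nor the share of all genes within the same limits is given here. The count of 2 therefore cannot be read as many or few. Outside these lists, Spp1 also had ratios of opposite sign, at 3.15 in B cells and -1.79 in T cells. Of its 99 UMIs in B cells with gluten, 76 lay in 1 cell. Zeb2 had a log2 ratio of -0.63 [-0.99, -0.27] in B cells and 0.67 [0.39, 0.95] in T cells. Rrm2 had 1.12 [0.60, 1.64] in B cells and -0.53 [-0.74, -0.32] in T cells. Its 84 and 52 UMIs in B cells lay in 20 and 11 cells, with 15 and 16 in the highest cell. The intervals do not cover this spread between cells.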

How the results depend on the processing

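No paired analysis was possible because each diet has 1 library. Alternatives with other lineage cells left out and without each gene's highest cell were chosen after seeing the data. The main counts were 105 genes 2-fold higher and 196 lower. They were 48 and 74 in cells thinned to 1000 UMIs, 419 and 713 with a minimum of 10 UMIs and 896 and 1057 with no minimum; fewer or more genes enter these counts by construction. Of the 301 genes past 2-fold, 243 stayed past it with TMM factors. The counts were then 125 higher and 138 lower. Without cells of 10 or more acinar UMIs they were 82 and 236. Leiden resolutions of 0.4 and 1.5 gave 4 and 24 groups in place of 7. The Cxcl13 ratio reversed to 0.0381 without the 6% of barcodes with the highest doublet score and to 0.0275 without cells carrying other lineage markers. Without those cells Rgs5 reversed to 1.44 and Mgp to 1.18; the UMIs of these genes lay in few cells. Ccl21a and Ppic gave no ratio without those cells, nor Ccl21a in thinned cells or without its highest cell, since both libraries were then at 3 UMIs or fewer. Of the other values of genes and lists under an alternative, 614 kept their direction and size and 26 moved. Of the main counts and shares, 45 values were classed as near the reported one and 8 as moved. The 8 are the counts in thinned cells, the counts with other minimums and the group numbers above. Without the acinar carriers the acinar median was 1.17. Shares under about 1% and genes under 50 UMIs are limited by depth, which was lower with gluten.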
